A study of Mus musculus and Rattus norvegicus with 28 samples.

Results

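The heat shock response is the induction of molecular chaperones when proteins are damaged or fail to fold. Heat shock factor 1, encoded by Hsf1, binds repeats of the pentamer nGAAn in the promoters of chaperone genes, and the chaperones in turn bind unfolded protein segments. HSP70 proteins do so in cycles of ATP hydrolysis started by J domain proteins and reset by exchange factors of the HSP110 type, HSP90 proteins hold late folding intermediates such as kinases and steroid receptors, and small heat shock proteins hold unfolded proteins without ATP. In heart muscle these proteins are known for keeping sarcomere proteins folded under load, and the stress-inducible ones are also known to respond to heat, hypoxia and cell isolation.

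The expression and promoter accessibility of 10 genes of this system were examined, namely the stress-inducible HSP70 genes Hspa1a and Hspa1b, the constitutive cytosolic HSP70 gene Hspa8, the endoplasmic reticulum HSP70 gene Hspa5, the small heat shock protein gene Hspb1, the HSP110 gene Hsph1, the J domain gene Dnajb1, the HSP90 genes Hsp90aa1 and Hsp90ab1, and Hsf1. They were chosen by name, but with earlier results of these data known, so their shares are set beside those of all genes as a description only. All 10 were found among 55450 mouse genes and 9 among 32623 rat genes, where no gene was named Hspa1a. Mouse cells came from left ventricles of C57BL/6 mice of both sexes at embryonic day 18.5 (E18.5) and postnatal days 1 (P1), 3 (P3) and 7 (P7), with 2 RNA-seq and 2 ATAC-seq libraries per time point and no treatment. They were isolated with trypsin and collagenase and enriched for cardiomyocytes by preplating. Rat cells were neonatal ventricular cardiomyocytes of Sprague Dawley P1 pups, cultured and given either 100 nM of the histone deacetylase inhibitor trichostatin A (TSA) or its solvent DMSO 1 day after plating, with 3 RNA-seq libraries per group. The replicates are described by the study as biological, but the labels do not name the animals or the cultures, so the spread between libraries may be partly technical.

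The labelled cell type was checked first, because all libraries are bulk RNA in which fewer cells of a type and less RNA per cell cannot be told apart. Summed FPKM of 16 cardiomyocyte markers fell from 28861 and 37430 at E18.5 to 2584 and 1214 at P7, with 15 of 16 markers lower by the test described below, and that of 12 fibroblast markers rose from 1049 and 980 to 4684 and 5486, with 10 of 12 higher. Tnnt2, cardiac troponin T, was still present at P7 at 520 ± 269 FPKM (SD, n = 2) against 6657 ± 729 at E18.5. The 8 erythroid markers summed to 29056 and 35399 FPKM at E18.5 and to between 4.7 and 41.0 in the 6 postnatal libraries, and all 8 were lower at P1, P3 and P7. Hba-a1, an alpha globin gene, was at 9115 ± 1388 FPKM at E18.5 and 8.72 ± 8.82 at P1. Endothelial, macrophage, and smooth muscle and pericyte markers summed to between 338 and 776, 54.4 and 201, and 431 and 1879 FPKM in the mouse libraries. Among defining genes, Col1a1 of fibroblasts went from 68.9 ± 2.43 FPKM at E18.5 to 818 ± 139 at P7, Pecam1 of endothelium at 59.9 ± 25.4 and 51.7 ± 5.51, and Acta2 of smooth muscle at 416 ± 90.8 and 1243 ± 116. In rat, the 11 fibroblast markers named there summed to 8295.5, 8926.3 and 9194.5 FPKM with DMSO and 8026, 7779.7 and 5215.7 with TSA. The 9 macrophage markers summed to 1020, 1039 and 492 with DMSO and 559, 480 and 425 with TSA. In each list 1 gene was higher with TSA by the test described below, and none lower. Col1a1 was at 3220 ± 490 FPKM (SD, n = 3) with DMSO and 2432 ± 508 with TSA, and Tnnt2 at 2464 ± 182 and 2705 ± 246. The part of these differences in the results below was not tested.

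Promoter sequences are shown first, because Hsf1 acts through elements in them. RefSeq start sites on GRCm38.p6, which has the coordinates of mm10, gave windows for 6 of the 10 genes, from 250 bases before to 50 bases after the start. No window was found for Hspa8, Hsp90aa1, Hsp90ab1 and Hsf1. In the lines that follow, capitals mark 2-unit heat shock elements (GAANNTTC or TTCNNGAA, each its own reverse complement, so that 1 search covers both strands), 3-unit elements (GAANNTTCNNGAA or TTCNNGAANNTTC, which contain 2-unit elements) and, in Hspa5 alone, an endoplasmic reticulum stress element (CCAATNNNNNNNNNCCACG or its reverse complement).
Hspa1a, chr17:34972107-34972406, minus strand: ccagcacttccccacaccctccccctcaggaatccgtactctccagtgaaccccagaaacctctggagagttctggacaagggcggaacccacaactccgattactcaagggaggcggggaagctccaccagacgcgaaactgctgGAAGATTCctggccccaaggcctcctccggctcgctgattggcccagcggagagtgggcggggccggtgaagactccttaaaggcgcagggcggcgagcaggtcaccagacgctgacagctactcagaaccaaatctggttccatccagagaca
Hspa1b, chr17:34959189-34959488, minus strand: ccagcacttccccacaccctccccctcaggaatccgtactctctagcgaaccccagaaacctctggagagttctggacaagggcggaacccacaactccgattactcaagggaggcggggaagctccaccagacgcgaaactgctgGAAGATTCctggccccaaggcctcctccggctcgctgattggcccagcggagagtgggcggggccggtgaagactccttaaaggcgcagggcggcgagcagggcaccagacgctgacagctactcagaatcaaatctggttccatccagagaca
Hspb1, chr5:135887669-135887968, plus strand: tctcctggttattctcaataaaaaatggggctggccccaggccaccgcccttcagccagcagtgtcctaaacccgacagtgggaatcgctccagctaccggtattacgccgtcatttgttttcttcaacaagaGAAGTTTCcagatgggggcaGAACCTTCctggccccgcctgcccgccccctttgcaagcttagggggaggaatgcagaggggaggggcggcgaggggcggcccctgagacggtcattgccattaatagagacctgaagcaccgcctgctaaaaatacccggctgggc
Hsph1, chr5:149636287-149636586, minus strand: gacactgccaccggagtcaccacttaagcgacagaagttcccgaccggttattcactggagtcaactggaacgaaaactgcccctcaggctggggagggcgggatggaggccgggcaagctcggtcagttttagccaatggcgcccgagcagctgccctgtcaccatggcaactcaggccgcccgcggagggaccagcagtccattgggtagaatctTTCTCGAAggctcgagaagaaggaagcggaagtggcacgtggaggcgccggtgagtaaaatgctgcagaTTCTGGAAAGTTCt
Hspa5, chr2:34771840-34772139, plus strand: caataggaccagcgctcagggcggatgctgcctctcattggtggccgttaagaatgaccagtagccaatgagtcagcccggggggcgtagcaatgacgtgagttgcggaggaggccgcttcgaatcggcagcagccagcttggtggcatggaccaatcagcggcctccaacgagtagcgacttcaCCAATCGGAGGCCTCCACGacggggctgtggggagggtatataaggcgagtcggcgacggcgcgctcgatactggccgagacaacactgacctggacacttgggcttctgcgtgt

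A 2-unit heat shock element was found in the windows of 4 of these 6 genes, against 15.1% of all 32851 promoter windows. The first is a count of genes and the second a share of windows, and Hspa1a and Hspa1b have near-identical windows. Hspa1a and Hspa1b each held 1 element, GAAGATTC, which lay 104 to 97 bases upstream of the start in both. Their windows were identical at 296 of 300 positions and differed, counted from 1 at the 5′ end with the Hspa1a base first, by C44T, T47C, T249G and C276T, none of which lies in the element. Hspb1 held 2, GAAGTTTC at 117 to 110 and GAACCTTC at 97 to 90 bases upstream. Hsph1 held 3, and a pair of them formed the only 3-unit element of the set, TTCTGGAAAGTTC, which lay 36 to 48 bases downstream of the start in the window shown and 15 to 27 in a second window with another start. A 3-unit element was found in 0.603% of all windows. Hspa5 held no heat shock element but did hold the stress element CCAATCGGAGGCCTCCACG, 65 to 47 bases upstream, in a form found in 0.119% of all windows. Neither of the 2 windows of Dnajb1 held these letters. Only these exact letters were searched, so the counts of elements say nothing about other forms of them, at Dnajb1 or at the other genes. These matches describe sequence and do not show binding.

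Expression was then compared over time. A gene was called when limma on log2(FPKM + 1) gave a Benjamini-Hochberg adjusted p under 0.05 over all 13979 genes tested and a log2 fold change beyond 1 either way, where FPKM is fragments per kilobase of transcript, scaled to the depth of the library. All 10 genes passed the filter of at least 1 FPKM in at least 2 libraries. Against E18.5, 4 of the 10 were lower at P1 (Hspa1a, Hspa1b, Hspb1 and Dnajb1), where 6.06% of all genes were called lower. At P3 the same 4 and Hspa5 were lower, 5 of 10 against 8.88% of all genes. At P7, 3 of 10 were lower (Hspa1a, Hspa1b and Hspb1), against 12.3%. No member was called higher at any time point, where 10.1%, 13% and 15.4% of all genes were. Called genes were more often higher than lower overall (62.5% higher at P1), but median-of-ratios scaling moved that share to 45.8% and TPM to 77.3%. The median log2 fold change of all genes tested was 0.15, 0.16 and 0.15 at P1, P3 and P7, while that of the 10 members was -0.80, -0.99 and -0.75. Among the postnatal time points no member was called, by limma, in P3 against P1, P7 against P1 or P7 against P3. In these contrasts 0.0143%, 8.91% and 3.55% of all genes were called. At an unadjusted p under 0.05 there were 1, 2 and 2 of the 10 members, beside 11.3%, 31.0% and 18.5% of all genes, so the members' shares lay near or below the background. The groups of libraries did not overlap, with the postnatal ones lower, for 8, 8 and 7 of the 10 members at P1, P3 and P7, beside 26%, 28.4% and 32.7% of all genes.

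**Figure D1:**
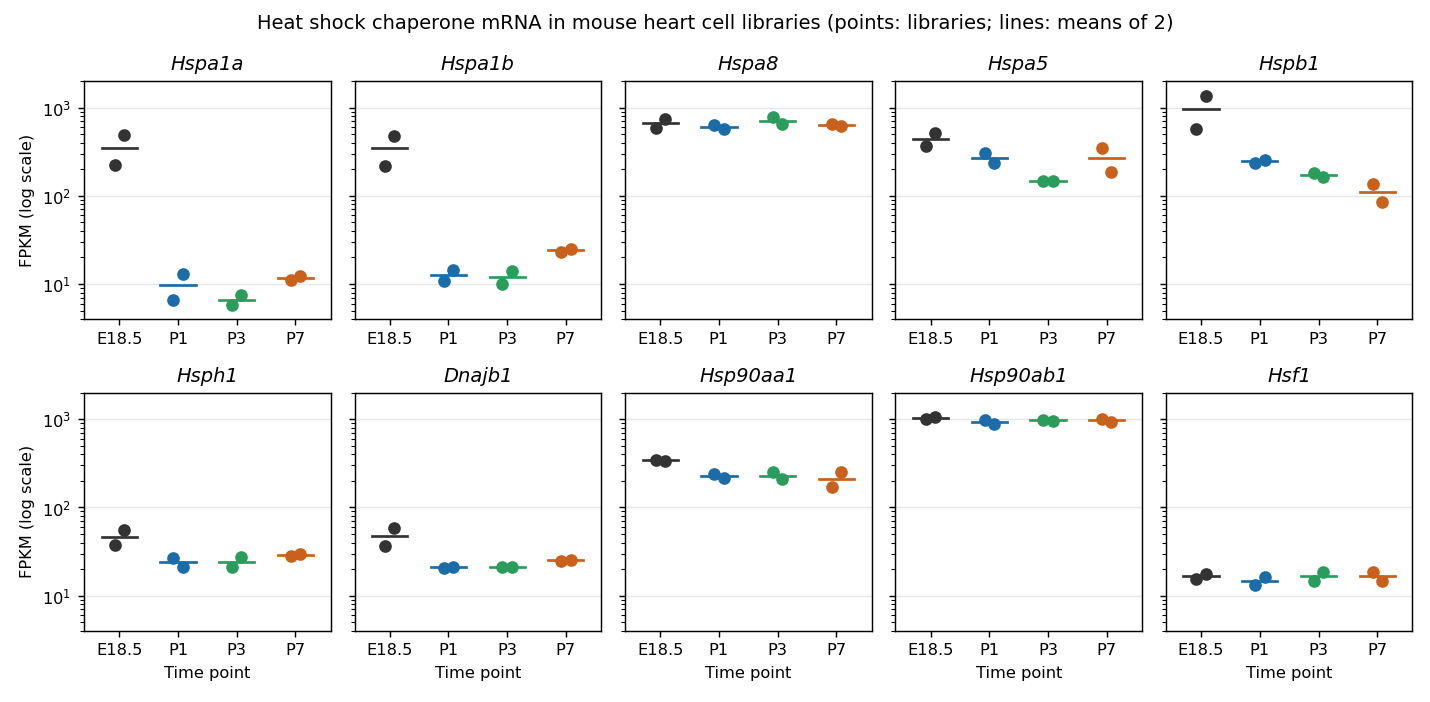
FPKM on a log scale of the 10 heat shock genes in the mouse RNA-seq libraries, with 1 point per library and a line at the mean of the 2 libraries of each time point. Hspa1a and Hspa1b stood between 217 and 483 FPKM at E18.5 and between 5.80 and 25.2 FPKM in the postnatal libraries, while Hspa8, Hsp90ab1 and Hsf1 moved least.

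The inducible HSP70 genes had the widest range. Hspa1a (ENSMUSG00000091971.3, chr17:34969190-34972156, minus strand) was at 221 and 483 FPKM at E18.5, then 6.59 and 12.9 at P1, 5.80 and 7.48 at P3, and finally 11.1 and 12.3 at P7. Its E18.5 libraries differed from each other by 2.18 times and both lay far above the 6 postnatal libraries, which ran from 5.80 to 12.9. The mean fell 36.2-fold at P1, with a log2 fold change of -5.0 (SE 0.38, adjusted p = 9.36e-05), 53.0-fold at P3 (-5.43, adjusted p = 4.53e-05) and 30.1-fold at P7 (-4.69, adjusted p = 4.09e-05). Hspa1b (ENSMUSG00000090877.3, chr17:34956436-34959238, minus strand) encodes nearly the same protein and was at 217 and 475 FPKM at E18.5, then 10.9 and 14.5 at P1, 10 and 14.0 at P3, and finally 22.8 and 25.2 at P7. It fell 27.2-fold at P1, with a log2 fold change of -4.57 (SE 0.34, adjusted p = 8.13e-05), 28.8-fold at P3 (-4.64, adjusted p = 5.16e-05) and 14.4-fold at P7 (-3.69, adjusted p = 6.76e-05). Both libraries of Hspa1b at P7 lay above all 4 libraries of P1 and P3, but the difference from P1 was not called (log2 fold change 0.88, SE 0.34, adjusted p = 0.12). In limma with the replicate number as a block, or with only these 2 time points fitted, the adjusted p was 0.037 and 0.031. The log2 fold change of 0.88 stayed under the fold threshold in both. With TPM and with limma-voom the adjusted p was 0.0995 and 0.17. The order of the time points was therefore E18.5 above the rest for both genes, with no difference called between P7, P1 and P3.

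Hspa1a and Hspa1b are neighbours with near-identical copies of one coding sequence, so their separate values are uncertain. Of the 150-base windows along the Hspa1a transcript, 38.1% occurred without a mismatch in Hspa1b, and 2.98% in the adjacent relative Hspa1l. How the alignment divided such reads is not given in the sources used here. The sum of the 2 genes does not depend on how such reads were split between them, though it would on reads discarded, counted at both or shared with Hspa1l. It was 438 and 958 FPKM at E18.5 and between 15.8 and 37.5 in the postnatal libraries. The summed gene gave log2 fold changes of -4.82, -5.06 and -4.14 at P1, P3 and P7 (adjusted p = 7.93e-05, 4.49e-05 and 5.01e-05). Gm20481, annotated on the opposite strand across 19.0% of the exon bases of Hspa1a, was listed at 0 to 3.05 FPKM, and the unstranded libraries cannot separate it.

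Hspb1 (ENSMUSG00000004951.10, chr5:135887919-135889563, plus strand), which encodes HSP27, a small heat shock protein that binds actin filaments and unfolded proteins, was lower at each later time point. It was at 576 and 1349 FPKM at E18.5, then 238 and 256 at P1, 182 and 162 at P3, and finally 136 and 84.6 at P7. No library of one time point overlapped those of another. The log2 fold change against E18.5 was -1.83 at P1 (SE 0.37, adjusted p = 0.0056), -2.35 at P3 (adjusted p = 0.0013) and -3.02 at P7 (adjusted p = 0.00027), or 3.90-, 5.59- and 8.71-fold lower means. The E18.5 libraries were far apart, and without the second the changes were -1.22, -1.74 and -2.41 (adjusted p = 0.020, 0.0049 and 0.0012), still called. P7 was below P1 by a log2 fold change of -1.19 (SE 0.37), which was not called (adjusted p = 0.060). The cardiomyocyte marker sums, given above for E18.5 and P7, were 14484 and 22988 FPKM at P1 and 9664 and 7857 at P3. The part of cell composition in the values of Hspb1 was not tested.

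The partners of HSP70 moved less. Dnajb1 (ENSMUSG00000005483.10, chr8:83608193-83612653, plus strand), the J domain protein that loads clients onto inducible HSP70, was at 36.4 and 57.9 FPKM at E18.5, then 20.6 and 21.2 at P1, 20.9 and 21.1 at P3, and finally 24.9 and 25.7 at P7. Its postnatal replicates differed by at most 0.768 FPKM and lay below both E18.5 libraries. It fell at P1 (-1.10, SE 0.20, adjusted p = 0.0035) and P3 (-1.09, adjusted p = 0.0027), and at P7 its log2 fold change of -0.83 passed the p threshold (adjusted p = 0.0077) but not the fold threshold. Without the second E18.5 library the P1 and P3 changes were -0.77 each and no longer called. Hsph1 (ENSMUSG00000029657.15, chr5:149614287-149636376, minus strand), the HSP110 exchange factor for HSP70, was at 37.4 and 54.9 FPKM at E18.5 and between 21.1 and 30.0 FPKM in the 6 postnatal libraries. Its FPKM was divided unevenly between transcripts, with 0.236% to 92.4% for the 3802-base one by library. On reads estimated from coverage, limma-voom gave -0.79, -0.65 and -0.58 at P1, P3 and P7 (adjusted p = 0.011, 0.020 and 0.027). On FPKM the log2 fold changes were -0.89, -0.89 and -0.63 at P1, P3 and P7 (adjusted p = 0.012, 0.010 and 0.037), all under the fold threshold. Without the first E18.5 library they passed it at P1 and P3 (-1.16 at each), and without the second they were -0.62 at P1 and P3 and -0.36 at P7, none past the p threshold (adjusted p = 0.068, 0.060 and 0.20).

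**Figure D2:**
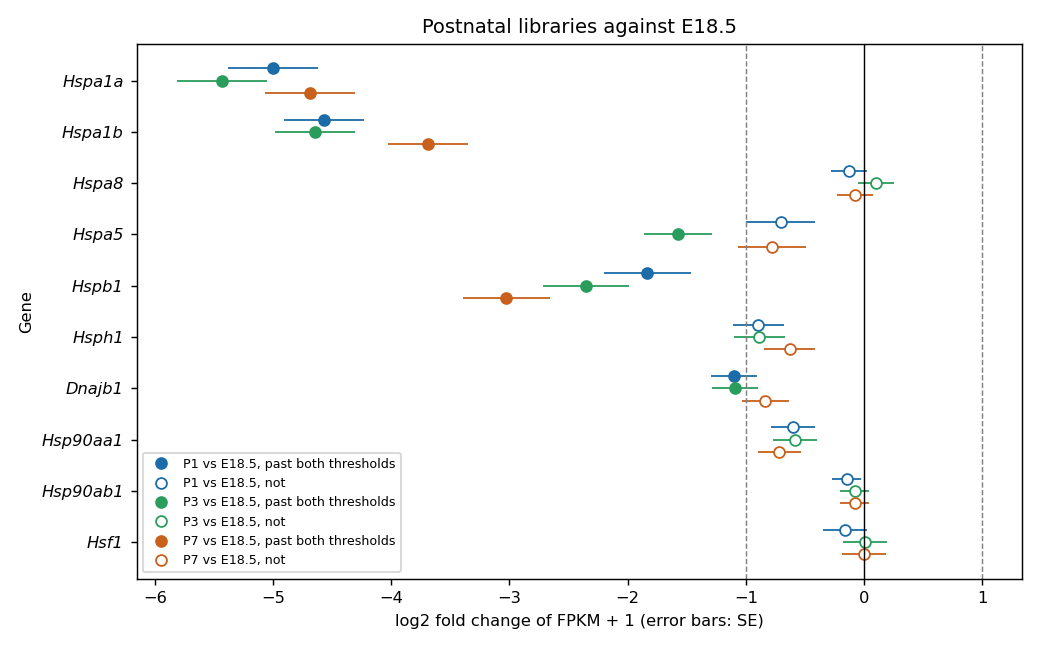
log2 fold changes of the 10 genes at P1, P3 and P7 against E18.5 on the log2(FPKM + 1) scale, with SE bars and dashed lines at the fold threshold; filled points passed both thresholds. Hspa1a and Hspa1b lie between -5.43 and -3.69, Hspb1 between -3.02 and -1.83, and Hspa8, Hsp90ab1 and Hsf1 within 0.16 of 0.

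Hspa5 (ENSMUSG00000026864.13, chr2:34771970-34777547, plus strand) encodes BiP, the HSP70 of the endoplasmic reticulum, and followed another course. It was at 368 and 521 FPKM at E18.5, then 303 and 237 at P1, 146 and 148 at P3, and finally 348 and 186 at P7. The P3 libraries were the lowest, and the P7 libraries differed from each other by more than those of any other postnatal time point. Only the P3 change was called (-1.57, SE 0.29, adjusted p = 0.0029), with values of -0.70 at P1 (adjusted p = 0.085) and -0.78 at P7 (adjusted p = 0.049). Without the first P7 library the P7 change was -1.23 (adjusted p = 0.0055) and called, and without the second it was -0.33 (adjusted p = 0.31). The division of FPKM between annotated transcripts differed between libraries. The 2613-base transcript took 52.9% and 42.3% of the gene's FPKM at E18.5, 89.6% and 87.8% at P1 and 90.1% in the first P7 library, but 22.2% and 28.1% at P3 and 24.6% in the second P7 library, where a 3672-base transcript took most of the rest. Since FPKM is divided by length, reads were also compared directly: reads estimated from coverage, in reads per M, were 1129 and 1615 at E18.5, then 915 and 720 at P1, 515 and 512 at P3, and finally 1049 and 661 at P7. On these reads limma-voom gave -0.74, -1.40 and -0.70 at P1, P3 and P7 (adjusted p = 0.045, 0.0029 and 0.043), so that P3 was again the only time point past both thresholds.

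Both cytosolic HSP90 genes were abundant, and they differed in how far they moved. Hsp90aa1 (ENSMUSG00000021270.13, chr12:110690605-110702728, minus strand), the more inducible of the pair, was at 345 and 340 FPKM at E18.5, then 236 and 215 at P1, 249 and 210 at P3, and finally 172 and 252 at P7. Every postnatal library was below both E18.5 libraries. The log2 fold changes of -0.60, -0.58 and -0.72 passed the p threshold (adjusted p = 0.032, 0.031 and 0.012) but not the fold threshold. Its FPKM too was divided unevenly between transcripts, with 14.9% to 98.8% for the 3281-base one by library. On estimated reads, limma-voom gave -0.60, -0.56 and -0.70 at P1, P3 and P7 (adjusted p = 0.017, 0.019 and 0.0063). Hsp90ab1 (ENSMUSG00000023944.14, chr17:45567775-45573271, minus strand), the constitutive form, was the most abundant of the 10 genes in 7 of the 8 mouse libraries, between 875 and 1051 FPKM in all 8. Its log2 fold changes were -0.15, -0.08 and -0.08 (SE 0.12 each, adjusted p = 0.36, 0.61 and 0.60).

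Hspa8 and Hsf1 were not called at any time point. Hspa8 (ENSMUSG00000015656.17, chr9:40800984-40810087, plus strand), the constitutive HSC70 that handles nascent chains and clathrin coats, was at 590 and 740 FPKM at E18.5, then 633 and 578 at P1, 773 and 650 at P3, and finally 645 and 611 at P7. The E18.5 range overlapped that of each later time point, with log2 fold changes of -0.13, 0.10 and -0.07 (SE 0.15 each, adjusted p = 0.53, 0.61 and 0.70). Hsf1 (ENSMUSG00000022556.11, chr15:76477422-76501913, plus strand) ranged from 13.1 to 18.8 FPKM over the 8 libraries and was the least abundant member at E18.5. Its log2 fold changes were -0.16, 0.01 and -0.00 (SE 0.18 each, adjusted p = 0.52, 0.98 and 0.99). Its mRNA does not report the state of the protein, which is known to be regulated by trimer formation and modification. Processed copies of several of these genes lie elsewhere in the genome, and how reads shared with them were assigned is not given in the sources used here.

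The set took a smaller share of the mRNA after E18.5. The 10 genes together held 0.641% and 0.923% of TPM at E18.5 and between 0.491% and 0.533% in the postnatal libraries. Hspa1a and Hspa1b alone went from 0.0824% and 0.174% of TPM to between 0.0034% and 0.0084%. In group means, the inducible HSP70 genes stood at 352 and 346 FPKM at E18.5, next to Hsp90aa1 at 343, and at 6.64 and 12 FPKM at P3, next to Hsf1 at 16.7.

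The E18.5 libraries themselves differed most in the same genes. The second library exceeded the first by 2.18 times for Hspa1a, 2.19 for Hspa1b, 2.34 for Hspb1, 1.59 for Dnajb1, 1.47 for Hsph1 and 1.42 for Hspa5, where the median gene was at 0.971. Of all genes tested, 0.551%, 0.529% and 0.393% had a ratio at or above those of Hspa1a, Hspa1b and Hspb1. Hsp90aa1 (0.986), Hsp90ab1 (1.05) and Hsf1 (1.13) were near the median. The immediate early list described below summed to 1909 and 2260 FPKM in these libraries, 1.18 times apart.

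Genes outside the set were described by lists. Their counts and medians are to be read beside those of all genes, of which 6.06% were lower and 10.1% higher at P1 and 12.3% lower and 15.4% higher at P7, with a median log2 fold change of 0.15 at both. Of 94 tested genes in 8 other chaperone lists, 11 were called at P1 (3 higher, 8 lower) and 27 at P7 (7 higher, 20 lower), or 11.7% and 28.7%, where 16.2% and 27.7% of all genes were called in either direction. At P3 there were 16 (4 higher, 12 lower), or 17.0% against 21.9%. By direction, 21.3% of the 94 were lower at P7 against 12.3% of all genes, and 7.45% higher against 15.4%. At P3, 12.8% were lower against 8.88%.

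The small heat shock proteins, relatives of Hspb1, were the one chaperone list in which all tested genes were lower at P7. These were 6 of 6 at P7 and 1 of 6 at P1, with a median log2 fold change of -2.37 at P7 and -0.68 at P1. Hspb7, a filament-binding small heat shock protein of heart muscle, went from 484 ± 19.7 FPKM (SD, n = 2) at E18.5 to 39.2 ± 16.0 at P7 (-3.65, adjusted p = 2.98e-05). Hspb3 (-3.03), Hspb6 (-2.51) and Hspb2 (-2.23), all known from muscle, were lower as well. Of the 6, 4 were also called lower at P7 than at P1. Hspb1 itself was lower by a log2 fold change of -1.19 but not called (limma, adjusted p = 0.060), and the difference between them was not tested. These genes are expressed in muscle, and 15 of 16 cardiomyocyte markers were lower at P7 too. The part of cell composition in the values of these genes was not tested.

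Among HSP70 and HSP110 relatives, 3 of 10 were lower at P7 (list median -0.18) and none higher. Hspa2, a relative best known from testis, went from 19.6 ± 1.47 to 2.79 ± 0.19 FPKM (-2.44, adjusted p = 4.36e-05). Hspa1l (-1.38), which lies next to Hspa1a and shares sequence with it, and Hspa12a (-1.16) were the others. Among HSP90 relatives and cofactors, 2 of 14 were lower (median 0.17). They were Unc45b, the muscle myosin chaperone, from 69.1 ± 12.9 to 6.99 ± 2.90 FPKM (-3.17, adjusted p = 6.09e-05), and Trap1 (-1.14), the mitochondrial HSP90. Of 16 J domain genes, 5 were lower and 1 higher (median -0.13). Dnajb9, an endoplasmic reticulum cochaperone of BiP, was already lower at P1 (-2.41, adjusted p = 5.92e-05) and remained so at P7 (-2.33), and Dnaja4 (-2.08) and Dnajb4 (-1.52) were lower at P7. Dnajc10, a disulfide reductase of the endoplasmic reticulum, was higher, from 11.5 ± 1.47 to 67.8 ± 7.02 FPKM (2.46, adjusted p = 1.48e-05). Of 10 exchange factors and cofactors, Bag3 was lower (-1.25, adjusted p = 0.00018) and Sil1, the exchange factor of BiP, higher (1.45, adjusted p = 0.00014), with a list median of -0.05.

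The endoplasmic reticulum list went both ways. Of 24 genes, 4 were higher and 3 lower at P7, with a median of 0.34 against 0.15 for all genes. Among the higher ones were the disulfide isomerase genes P4hb, which went from 167 ± 5.91 to 576 ± 33.9 FPKM (1.78, adjusted p = 1.51e-05), and Pdia4 (1.36, adjusted p = 0.00024). Dnajb9 and Herpud1 (-2.14, adjusted p = 3.54e-05), both known as genes of the unfolded protein response, were among the lower ones. The chaperonin list, which also holds prefoldin subunits, had 1 of 16 called (Cct6a, 1.00, higher) and a median of 0.31, against 0.15 for all genes. Its sum was 1685 and 1720 FPKM at E18.5 and 1993 and 2028 at P7. Of 3 tested heat shock factors and regulators, Hsf2 was lower, from 24.7 ± 2.79 to 7.53 ± 0.33 FPKM (-1.59, adjusted p = 5.88e-05), and the median was -0.40. Dnajb9 stands in both the J domain and the endoplasmic reticulum list.

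Immediate early genes, which are induced within minutes by many stimuli, cell isolation among them, moved with the inducible chaperones. Their 20 genes summed to 1909 and 2260 FPKM at E18.5, then 622 and 630 at P1, 583 and 643 at P3, and finally 931 and 1027 at P7. At P1, 15 of 20 were lower and none higher (median -1.55), and at P7, 11 were lower and 1 higher (median -1.43), the latter being Fosl1 (1.17, adjusted p = 0.030), named after its value was seen. Fosb (-4.58), Fos (-4.17), Atf3 (-3.75) and Nr4a1 (-3.61) had the largest changes at P7. The part of cell isolation in the values of Hspa1a and Hspa1b was not tested.

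**Figure D3:**
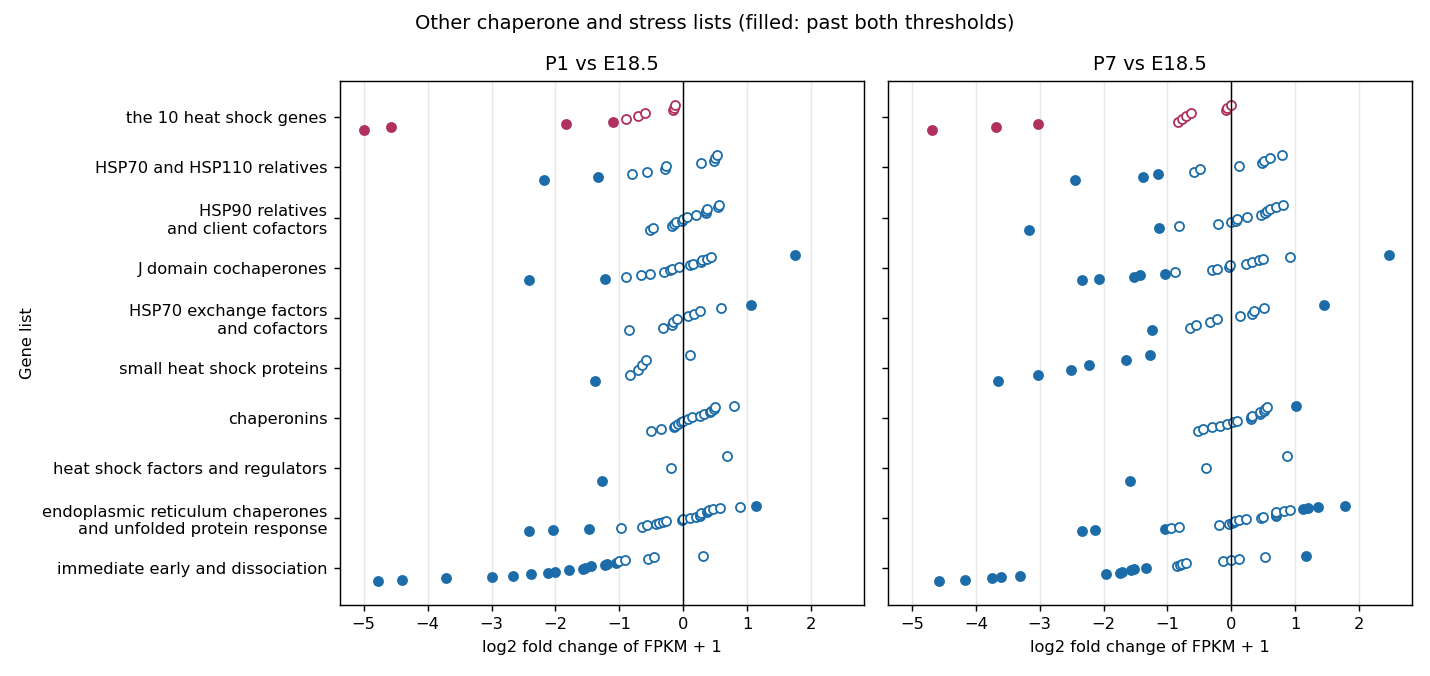
log2 fold changes on the log2(FPKM + 1) scale at P1 and P7 against E18.5 for the 10 heat shock genes (red) and the other lists (blue), 1 point per gene in order of size, with filled points past both thresholds. Small heat shock proteins are all filled and below 0 at P7, and 15 and 11 immediate early genes are filled and below 0 at P1 and P7. Of the 16 genes of the chaperonin list, prefoldin subunits included, 0 are filled at P1 and 1 at P7.

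The genes whose pattern over the 8 mouse libraries was most like that of each member were named by Pearson's r of log2(FPKM + 1), as a description over libraries that share time points and depth. For Hspa1a they were Creb5 (0.996), Gm43566 (0.996) and Dnajb9 (0.996), and for Hspa1b Jun (0.997), Ppp1r15a (0.995) and Siah2 (0.995). For Dnajb1 they were AW551984 (0.996), Ltb (0.992) and Jund (0.989), and for Hspb1 Prdx2 (0.994), Vegfb (0.992) and Mrps27 (0.991). Hsph1 was most like Ppdpf (0.978), Scml2 (0.973) and Arl3 (0.966), Hspa5 like Krt14 (0.941), Fbrsl1 (0.939) and Gm11223 (0.938), and Hsp90aa1 like Crtc1 (0.955), Gm9917 (0.950) and Ikzf5 (0.948). Hspa8 was most like Nsmce4a (0.951), Ptp4a1 (0.922) and Pycrl (0.915), Hsp90ab1 like Pxdc1 (0.928), Rab26os (0.918) and Snord104 (0.910), and Hsf1 like Tmem35b (0.938), Angptl6 (0.925) and Fam220a (0.896). Within the set, Hspa1a was most like Hspa1b (0.992), Dnajb1 (0.960) and Hsph1 (0.888), and least like Hspa8 (0.078) and Hsf1 (0.22).

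Promoter accessibility was read from the ATAC-seq peaks of each library, counted within 2.5 kb of any annotated transcript start of a gene. All 10 genes had a peak in both libraries at E18.5, P3 and P7, where 56.7%, 87.5% and 83.2% of all tested genes did, and 8 of 10 at P1, where 41.3% did. In all, 78 of 80 pairs of gene and library held a peak. The exceptions were Hspa1b and Hspb1 in the second P1 library, which held a peak at 43.0% of all genes, the lowest share of the 8. Peaks in all 8 libraries were found for 8 of 10 members and 36.6% of genes. The lists ranged from 13149 to 95257 peaks, and with only the 13149 highest-scoring peaks of each, 7 of 10 members and 22.5% of genes had a peak in all 8.

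Hspa1a had a promoter peak in all 8 libraries and Hspa1b in 7. At Hspa1a the fold enrichment, the signal over local background at the peak summit, was 5.66 and 4.86 at E18.5, then 7.03 and 5.16 at P1, 8.99 and 8.76 at P3, and finally 7.49 and 4.87 at P7. No time point lay wholly below E18.5. The summits stood 24 to 143 bases upstream of the start, and the peak spanned the heat shock element in all 8 libraries. At Hspa1b the values were 5.11 and 4.75 at E18.5, 7.73 in the first P1 library, 6.51 and 7.94 at P3, and 5.81 and 6.80 at P7, and the element lay within the peak in the 7 libraries that had one. Because 296 of 300 bases of these promoters are identical, reads from one could be placed at the other. Peak lists carry no read counts, and library quality differs between lists, so these values were not tested between time points.

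At Hspb1 the fold enrichment was 4.91 and 4.77 at E18.5, 5.24 in the first P1 library, 6.25 and 7.91 at P3, and 4.60 and 5.85 at P7. Its downstream heat shock element lay within the peak in 7 libraries and its upstream one in 6. At Hsph1 the peaks had a fold enrichment of 5.62 to 9.32 and covered the 3-unit element in all 8 libraries. At Hspa5 they reached the highest enrichment of the set, from 6.20 to 13.3, with the summit 140 to 236 bases upstream of the start, and covered the stress element in all 8, including both P3 libraries (9.04 and 13.3), where its mRNA was lowest. Dnajb1 ranged from 4.29 to 10.2, Hsf1 from 5.61 to 9.95 and Hspa8 from 4.87 to 7.99.

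At the peak nearest the start of the most abundant transcript, the HSP90 genes had the lowest median fold enrichment of the set (4.82 for Hsp90aa1 and 4.62 for Hsp90ab1). Hsp90ab1, at 875 to 1051 FPKM, had a fold enrichment of 3.01 to 5.71 there. A promoter peak of Hsp90ab1 was among the 13149 highest-scoring in 4 of 8 libraries. It had 1 promoter peak in each E18.5 and P1 library and 2 or 3 in each P3 and P7 library. The enrichment of its further peaks is not given here. Hsp90aa1 ranged from 4.54 to 8.38 at the peak nearest the start. It had 2 promoter peaks in each library, and the enrichment of the other is not given here. A peak of Hsp90aa1 was among the 13149 highest-scoring in all 8 libraries. At the peak nearest the start, Hsf1, at 13.1 to 18.8 FPKM, had higher enrichment than Hsp90ab1 in each of the 8 libraries.

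**Figure D4:**
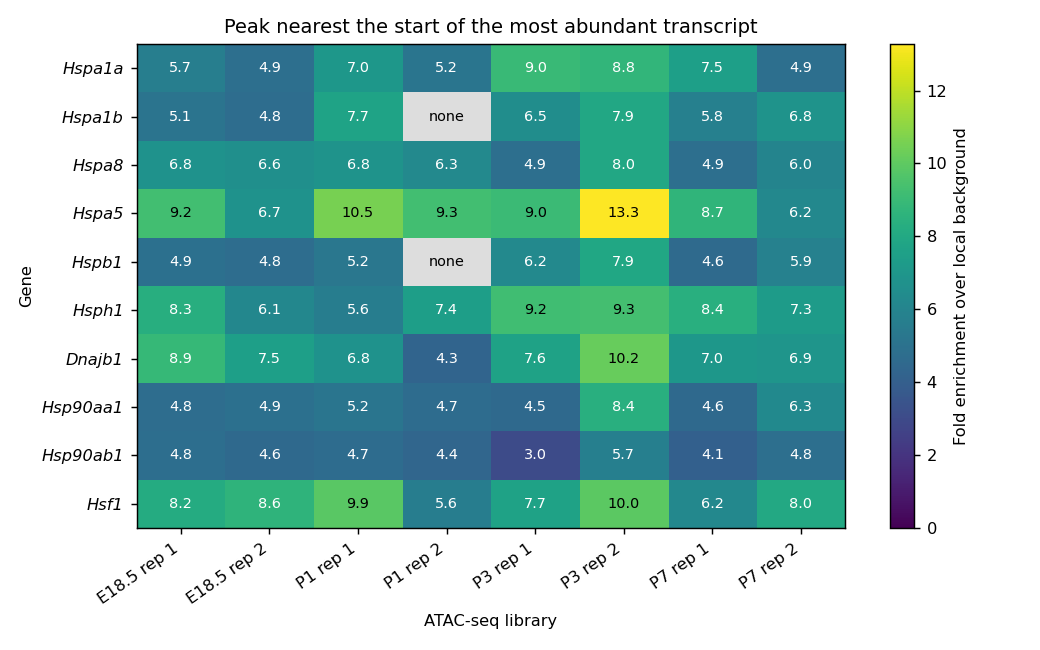
Fold enrichment over local background of the peak nearest the start of the most abundant transcript, by gene (rows) and ATAC-seq library (columns), with grey cells where no peak lay within 2.5 kb of any start. Hspa1b and Hspb1 lack a peak in the second P1 library, and Hspa5 reaches 13.3 in the second P3 library.

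Inhibition of histone deacetylases was examined in the cultured rat cells, where 9 of the 10 genes were named and all 9 were tested among 13625 genes. None of the 9 was called between TSA and DMSO, by limma or with the replicate number as a block, where 2.13% of all genes were called. At an unadjusted p under 0.05 there were 0 of the 9 (1 with median-of-ratios scaling), beside 19.8% of all genes (22.0% with that scaling). The lowest adjusted p values were those of Hspa8 and Hsp90ab1. Hspa8 was at 495, 457 and 362 FPKM with DMSO and 574, 551 and 510 with TSA. Its groups did not overlap, in the direction in which 17.1% of all genes did not, and it was higher with TSA in 3 of 3 numbered pairs. The log2 fold change was 0.33 (SE 0.14, adjusted p = 0.26, or 0.14 with the replicate block; unpaired exact permutation p = 0.1, two-sided, the smallest that 3 against 3 libraries allow). Hsp90ab1 was at 794, 770 and 614 FPKM with DMSO and 1012, 1010 and 738 with TSA, with overlapping groups and a log2 fold change of 0.34 (SE 0.17, adjusted p = 0.35, or 0.11 with the replicate block). It was likewise higher in 3 of 3 pairs, as was Hspb1.

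Hspa1b was at 9.03, 4.73 and 10.2 FPKM with DMSO and 5.84, 7.06 and 7.75 with TSA (-0.14, SE 0.26, adjusted p = 0.83). The groups overlapped. Hspa5 was at 429, 436 and 449 FPKM with DMSO and 415, 446 and 263 with TSA (-0.26, SE 0.20, adjusted p = 0.53), and TSA library 3 lay below the rest. Hspb1 was at 404, 403 and 554 FPKM with DMSO and 477, 468 and 558 with TSA (0.16, SE 0.16, adjusted p = 0.65). Hsp90aa1 was at 102, 92.5 and 133 FPKM with DMSO and 103, 84.9 and 91.7 with TSA (-0.22, SE 0.15, adjusted p = 0.50). Hsph1, Dnajb1 and Hsf1 had log2 fold changes of 0.12, -0.01 and 0.01 (SE 0.11 each, adjusted p = 0.61, 0.97 and 0.98).

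The third library of each rat group stood apart from the other 2. Their 10 most abundant genes took 7.55% and 8.45% of TPM, against 5.18% to 5.71% in the other 4, and their cardiomyocyte marker sums were 25144 and 35901 FPKM against 13368 to 15454. Without both of them the number of called genes was 549 rather than 290, and the number of called members stayed at 0. In that limma fit, Hsp90ab1 (log2 fold change 0.37, adjusted p = 0.012) and Hspb1 (0.23, adjusted p = 0.033) passed the p threshold but not the fold threshold. This setting was chosen after the data were seen. Of 92 tested genes in the other chaperone lists, 1 was called with TSA, Hspa4l, an HSP110 relative, which went from 1.92 ± 0.27 to 6.14 ± 1.90 FPKM (SD, n = 3; log2 fold change 1.26, SE 0.22, adjusted p = 0.033). Set beside the mouse P1 values, with no comparison made because species, annotation and culture differ, rat control cells had Hspa1b at 7.99 ± 2.88 FPKM and mouse P1 cells at 12.7 ± 2.58, Hspa8 at 438 ± 68.9 and 605 ± 39.2, and Hsf1 at 18.6 ± 0.46 and 14.8 ± 2.41.

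**Figure D5:**
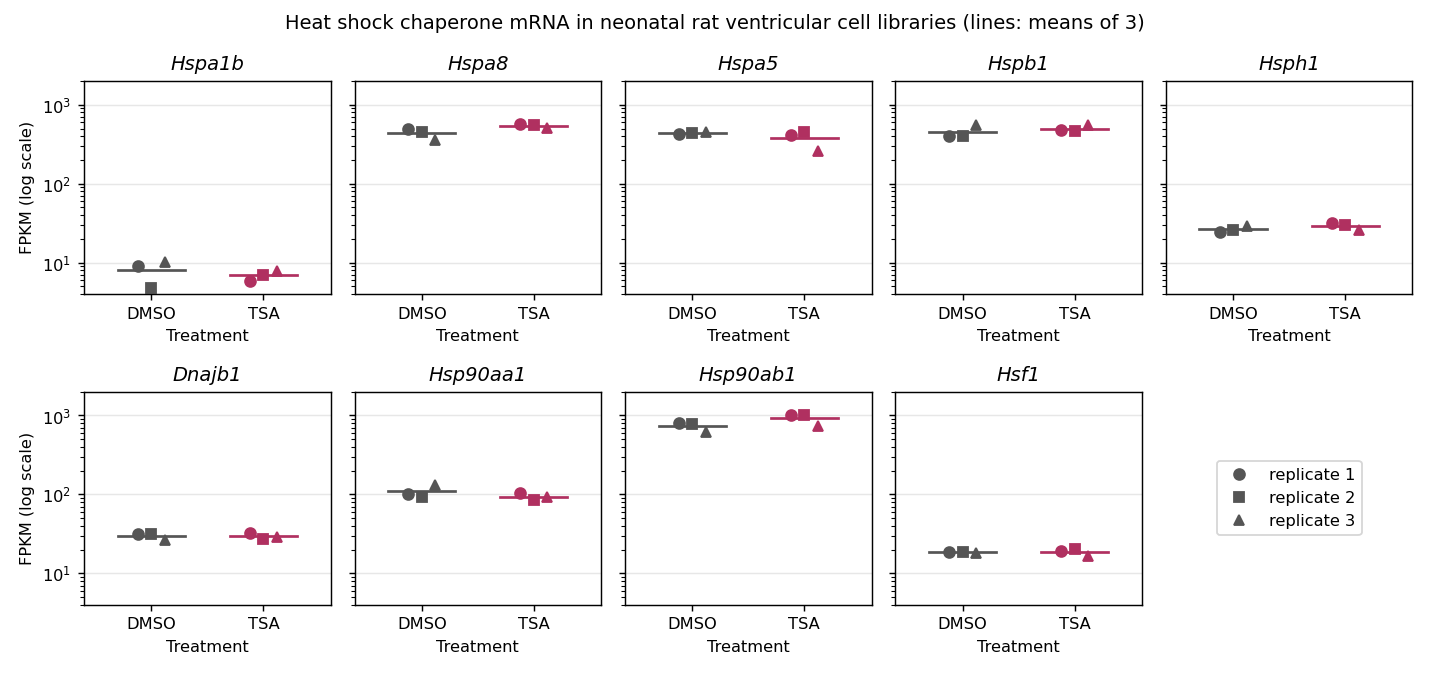
FPKM on a log scale of the 9 heat shock genes named in the rat annotation, with 1 point per library, symbols for replicates 1 to 3 and a line at the mean of the 3 libraries of each group. DMSO and TSA libraries overlap for 8 of 9 genes, and Hspa8 lies at 362 to 495 FPKM with DMSO and 510 to 574 FPKM with TSA.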

How the data were processed

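Cardiomyocytes from left ventricles were profiled by RNA-seq (8 mouse and 6 rat libraries, poly(A) mRNA, unstranded 150 bp paired reads) and ATAC-seq (8 mouse libraries). The HiChIP libraries were not analysed here. The authors aligned RNA-seq reads with HISAT2 2.1.0 and ran StringTie (1.3.5 for mouse and 1.3.4d for rat, per the file headers) with GENCODE vM21 on mm10 and the Ensembl annotation on rn6. The deposited files give FPKM per transcript, scaled by the authors' StringTie run for length and depth, with TPM and with coverage, the mean depth per base. For ATAC-seq, the authors trimmed reads with cutadapt, aligned them with Bowtie2, removed duplicates with Picard, called peaks per library with MACS2 and removed blacklisted regions. The deposited peak lists give a score, a fold enrichment (a ratio to local background), -log10 p and -log10 q as the authors' MACS2 run wrote them.

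Gene FPKM was the sum over transcript lines with the same gene. Depth, worked out from coverage and FPKM, was 29.3 to 37.5 (mouse) and 28.2 to 38.5 (rat) M reads of 150 bases. Genes that reached 1 FPKM in 2 or more mouse, or 3 or more rat, libraries were compared on log2(FPKM + 1) with limma 3.58.1 (lmFit, contrasts.fit, eBayes with a trend), two-sided, 1 fit over all mouse libraries and 1 over all rat libraries, with Benjamini-Hochberg adjustment over all genes tested. Since a pseudocount of 1 is added, fold changes of low genes are understated. The scripts were tested on simulated data. The members and lists were chosen with earlier results of these data known. Named genes were all 10 members, up to 4 called genes of each other list with the largest change at P7 or with TSA, the 3 most alike genes per member and 1 defining gene per marker list. The lists hold 97 other chaperone genes, 20 immediate early genes and 6 sets of cell type markers. Ddit3 has 2 mouse gene IDs, of which 1 was tested.

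A peak counted for a gene when its nearest edge lay within 2.5 kb of a transcript start in the files. Motifs were searched in RefSeq promoter windows (32851 windows). Same-numbered rat libraries deviated from their group means together (Pearson's r over genes 0.224, 0.194 and 0.346), and the numbers were taken to pair them. Libraries 1 and 2 of unlike number had r of 0.09 and 0.167, so these values hardly separate a pairing of libraries 1 and 2. Unlike-numbered pairs with a library 3 lay between -0.27 and -0.2. As alternatives, 0.1 replaced the pseudocount, the filter was dropped or raised to a mean of 5 FPKM, TPM replaced FPKM, values were divided by median-of-ratios factors, limma-voom was run on estimated reads, and the fit was given a replicate block. Further ones were a fit of the 2 time points alone, each library left out, and, for peaks, limits of 1 and 5 kb, the start of the most abundant transcript and equal numbers of top peaks. After the data were seen, 2 more were added: leaving out rat library 3 of both groups together, and Hspa1a and Hspa1b summed.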

Additional observations from a re-analysis of the deposited data

How the results depend on the processing

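Alternative values were counted for the members' log2 fold changes against E18.5, with TSA and, for Hspa1b and Hspb1 only, in P7 against P1. Of these 638, 594 kept their direction and their side of the thresholds, 12 passed the thresholds where the reported value did not, 4 no longer passed and 28 changed sign, the last all in values that were not called. The other postnatal contrasts of members were left out of this count, and signs changed there too, as for Hsp90aa1 in P3 against P1 (-0.10 to 0.15). Hspa1a, Hspa1b and Hspb1 were called against E18.5 at P1, P3 and P7 under every alternative, with log2 fold changes of Hspa1a between -5.99 and -4.13. Members called ranged from 3 to 5 at P1, 4 to 6 at P3 and 3 to 4 at P7. Hspb1 was called in P7 against P1 (1 member in place of 0) when only these 2 time points were fitted, and leaving out a library gave 0 to 1. Genes called in P3 against P1 (2) were 0 without a filter, with TPM, with the replicate block and with only the 2 time points, 1 at a mean FPKM of at least 5, and 0 to 35 with a library left out. In P7 against P3 (496) there were 15 without a filter and 23 to 542 with a library left out, the low values coming without either P3 library (23 and 26) or the second P7 library (106). In TSA against DMSO (290) there were 79 at a mean FPKM of at least 5, 549 without library 3 of both groups (chosen after seeing the data) and 33 to 458 with 1 library left out: 65, 92 and 458 without DMSO library 1, 2 and 3, and 61 and 33 without TSA library 1 and 2. The members called with TSA were 0 under each of these.

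Sign changes with TPM were Hspa8 at P1 (0.11) and P7 (0.19), Hsp90ab1 at P1 (0.09), P3 (0.17) and P7 (0.18), Hsf1 at P1 (0.07) and P7 (0.25), and Hsf1 with TSA (-0.06). With size factors they were Hspa8 (-0.12) and Hsf1 (-0.20) at P3 and Hsf1 with TSA (-0.03), and with limma-voom Hsf1 at P3 (-0.02). With a library left out, Hspa8 ranged from -0.29 to 0.04 at P1, -0.06 to 0.26 at P3 and -0.24 to 0.09 at P7, Hsf1 from -0.16 to 0.18 at P3 and -0.15 to 0.14 at P7, and with TSA Hspa1b ranged from -0.44 to 0.05, Dnajb1 from -0.09 to 0.04 and Hsf1 from -0.06 to 0.09. The cause of these changes was not tested.

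Same-numbered mouse libraries had r between -0.096 and 0.171. With 2 libraries per time point, the unlike-numbered values are these with the sign reversed, so they cannot show whether the numbers pair the libraries. A replicate block gave 2270, 3062 and 3875 genes against E18.5 and the same counts of members (4, 5 and 3). In rat the block gave 339 genes and 0 members, and it changed no other call of a member. The numbers of members with a peak in both libraries were 10, 8, 10 and 10 at all distances tried and 10, 7, 9 and 8 with equal numbers of top peaks. Fits that leave out 1 of 2 libraries assume that the remaining one varies like the other groups. Dnajb1 was no longer called with TPM at P1 and P3 (-0.88 and -0.86), and Hsph1 was called at both with size factors (-1.09 and -1.10).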
